A study of Mus musculus with 6 samples.

Results

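The genes described here are 36 enzymes and carriers that bring pyruvate and fatty acids into mitochondrial oxidation: 18 of pyruvate entry and the tricarboxylic acid (TCA) cycle, and 18 of fatty acid oxidation. They were chosen by symbol, and all 36 were found among the 28786 Ensembl gene IDs of the count table. All 36 also passed the filter on low counts, which left 13662 genes to test. RNA came from haematopoietic stem cells (HSCs), the rare marrow cells that can rebuild all blood lineages. The cells were sorted into 2 groups by TMRM, a fluorescent dye that gathers in mitochondria according to their membrane potential: 3 TMRM-high libraries and 3 TMRM-low libraries. All donors were wild-type C57BL/6 mice 6 to 8 weeks old, with no treatment given in the labels. Every library held 1500 bone marrow cells gated as Lin-, Sca-1+, c-Kit+, CD48- and CD150+.

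Pyruvate enters the TCA cycle as acetyl-CoA through the pyruvate dehydrogenase complex, or as oxaloacetate through pyruvate carboxylase. Fatty acids are handed over to carnitine, carried across the inner membrane, and shortened by beta-oxidation, a repeated round of dehydrogenation, hydration, a second dehydrogenation and thiolysis that yields acetyl-CoA. Both routes feed electrons to the respiratory chain, which builds the membrane potential that TMRM reads. HSCs are known for relying on glycolysis in the resting state, and fatty acid oxidation has been linked to their maintenance.

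Levels are CPM, the authors' estimated counts scaled to library size, and are given for replicates 1, 2 and 3 in that order. Each log2 fold change is the TMRM-high value over the TMRM-low value with its standard error (SE), so a negative one means lower in TMRM-high. Adjusted p-values are two-sided, from edgeR's quasi-likelihood test with Benjamini-Hochberg adjustment over all 13662 genes. Genes below an adjusted p of 0.05 are called. Library totals ran from 14270069 to 22070594 estimated counts. Separate mice for each library are not stated in the labels, and p-values here reflect only how these libraries scatter, which may be technical. The TMRM-high libraries were far closer to each other than the TMRM-low libraries, with a chi-square per degree of freedom of 3.93 to 6.77 between TMRM-high pairs, against 45.3 to 52.2 between TMRM-low pairs. Calls of genes and counts of called markers are therefore also given with the 3 TMRM-high libraries summed into 1, which leaves that group without replicates.

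Most genes of the TCA cycle and fatty acid oxidation did not pass the test between TMRM-high and TMRM-low HSCs, and the fitted changes were modest, with log2 fold changes from -1.0 to 0.55. Of the 36, 1 was called higher (Dlst), 4 were called lower (Mdh1, Suclg1, Acaa2 and Eci1) and 31 did not pass. That is 13.9% called, against 11.0% of all genes tested, so the share over both directions is near the background. By direction, 1 of 36 stands against 5.84% of all genes called higher. Lower calls, 4 of 36, were a larger share than the 5.12% of all genes, but they are few. DESeq2 called 1 higher and 9 lower of the 36, against 1324 and 1337 of all 13662 genes. Limma voom called 1 higher and 4 lower of the 36, against 812 and 881 of all 13662 genes. The median log2 fold change was -0.09 over the 36 genes and -0.03 over all genes tested. It was 0.04 over the 18 pyruvate and TCA cycle genes and -0.19 over the 18 fatty acid oxidation genes. Values of the groups did not overlap for 15 of the 36 genes (5 higher and 10 lower in TMRM-high), or 41.7%, against 35.4% of all genes tested (18.4% higher and 17.0% lower). At an unadjusted edgeR p under 0.05 were 14 of the 36 genes and 3495 of all 13662 tested, the background for such counts below. In these bulk libraries, fewer cells of a type that carries an RNA and less of that RNA per cell cannot be told apart.

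**Figure D1:**
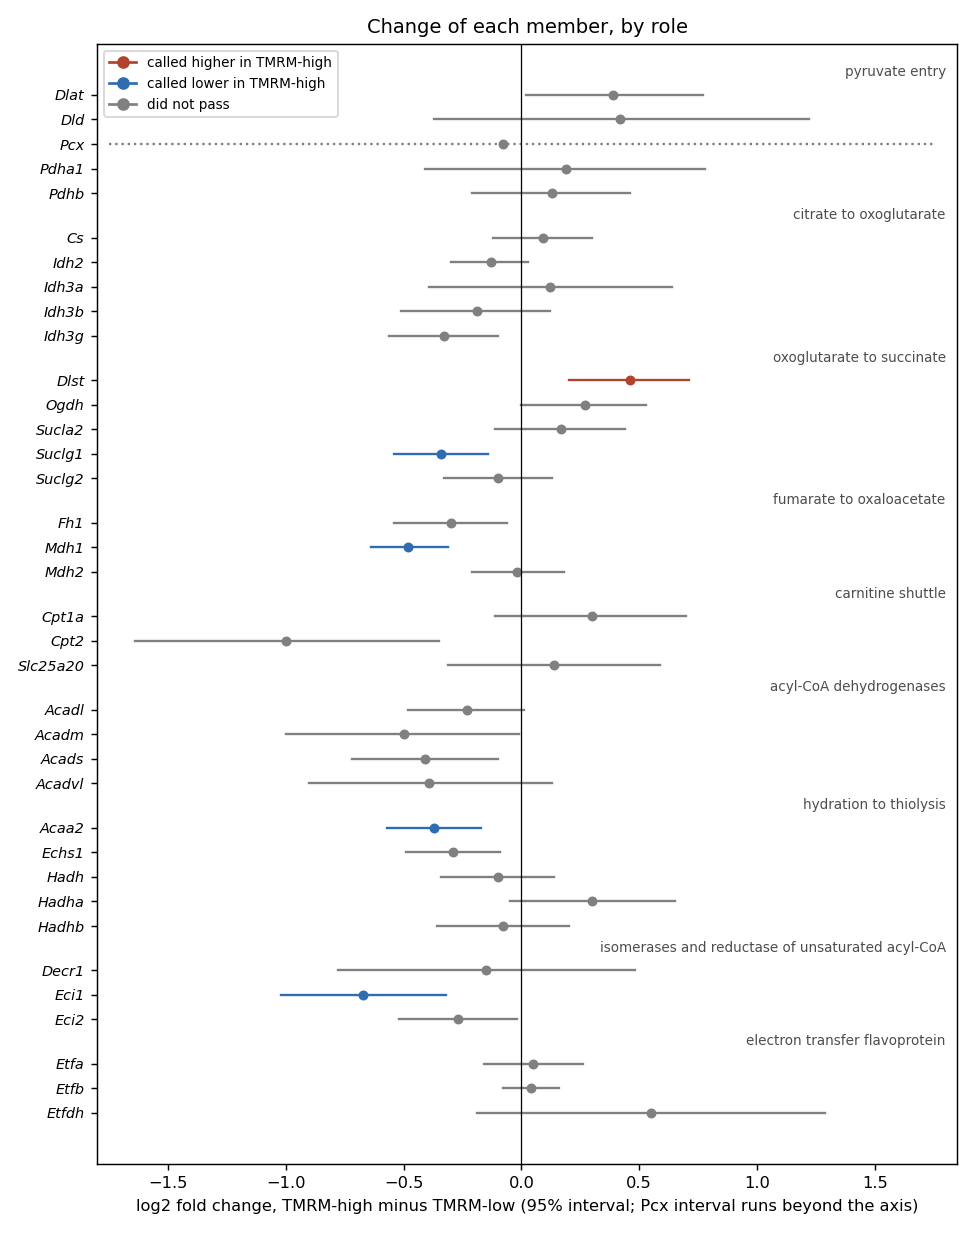
Log2 fold change of each of the 36 genes, TMRM-high minus TMRM-low, with its 95% interval, ordered down the page by role in the pathway; red is called higher, blue called lower, grey did not pass, and the dotted Pcx interval runs past the axis. All 3 genes of the fumarate to oxaloacetate step, all 4 acyl-CoA dehydrogenases and all 3 auxiliary enzymes of unsaturated acyl-CoA lie left of 0. Mdh2 does so only just (-0.02), and most grey intervals cross 0.

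Kit, the receptor used to gate the cells, was at 260 to 269 CPM in TMRM-high, against 192 to 299 CPM in TMRM-low libraries, and Slamf1, which encodes CD150, at 5.08 to 6.17 and 1.03 to 8.99 CPM in the TMRM-high and TMRM-low groups. Ly6a, which encodes Sca-1, was at 28.2 to 32.6 CPM in TMRM-high, against 163 to 176 CPM in TMRM-low libraries. Markers of other cells also differed. Of 11 tested neutrophil markers 10 were called higher, and their summed level was 14985 to 15389 CPM in TMRM-high, against 3602 to 3941 CPM in TMRM-low libraries. All 8 B lineage markers were called higher (503 to 509 CPM summed in TMRM-high, against 42.8 to 45.8 CPM in TMRM-low), as were 4 of 7 basophil and mast cell markers (303 to 316 CPM in TMRM-high, against 44.9 to 66.6 CPM in TMRM-low) and 6 of 9 erythroid markers (190 to 211 CPM in TMRM-high, against 43.6 to 60.3 CPM in TMRM-low). Of 10 cycling genes 7 were called higher, summing to 1760 to 1786 CPM in TMRM-high, against 1175 to 1266 CPM in TMRM-low libraries. Of 15 HSC markers 5 were called lower (Procr, Hlf, Mllt3, Ly6a and Lmo2) and 10 did not pass. Of the 15, 9 had overlapping groups and 4 had positive log2 fold changes. The sum of the 15 was 1188 to 1213 CPM in TMRM-high, against 1717 to 1805 CPM in TMRM-low libraries. Lmo2 alone averaged 506 CPM in TMRM-high, against 764 CPM in TMRM-low libraries. With the TMRM-high libraries summed, the called numbers were 9 neutrophil, 5 B lineage, 3 basophil and mast cell, 1 erythroid and 1 cycling gene higher, and 2 HSC markers lower. The part of these differences in the levels of the 36 genes was not tested.

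Markers of tissues that burn much fat were at low levels. Of 7 markers of brown fat, liver and muscle 3 were tested and none was called by edgeR, DESeq2 or limma voom, with 0 at an unadjusted p under 0.05. Their sum was 4.65 to 4.94 CPM in TMRM-high, against 4.06 to 10.8 CPM in TMRM-low libraries, and Ucp1, the uncoupling protein of brown fat, was at 0 in all 6 libraries.

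Mdh1 had the smallest adjusted p of the 36. It encodes the cytosolic malate dehydrogenase of the malate-aspartate shuttle, which moves reducing equivalents into mitochondria (ENSMUSG00000020321, chromosome 11, 21556787 to 21572367 on GRCm38). It was at 249, 249 and 242 CPM in TMRM-high libraries, against 327, 372 and 328 CPM in TMRM-low libraries. Every TMRM-high value lay below every TMRM-low value, and the log2 fold change was -0.48 (SE 0.0712, edgeR adjusted p = 0.00588). The call was lost without TMRM-high replicate 3 (edgeR adjusted p = 0.0543) and with the TMRM-high libraries summed (edgeR adjusted p = 0.63, log2 fold change -0.44).

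Suclg1 encodes the alpha subunit that both forms of succinyl-CoA synthetase share (ENSMUSG00000052738, chromosome 6, 73248382 to 73276911). Its levels were 112, 111 and 111 CPM in TMRM-high libraries, against 134, 135 and 153 CPM in TMRM-low libraries (log2 fold change -0.34, SE 0.0876, edgeR adjusted p = 0.0471). Acaa2 encodes the mitochondrial ketoacyl-CoA thiolase that closes a round of beta-oxidation (ENSMUSG00000036880, chromosome 18, 74779197 to 74806208). Levels of Acaa2 were 83.6, 83.3 and 83.2 CPM in TMRM-high libraries, against 107, 106 and 110 CPM in TMRM-low libraries (log2 fold change -0.37, SE 0.0864, edgeR adjusted p = 0.0331). Suclg1 also lost its call with total-count scaling (edgeR adjusted p = 0.0609), without the low-count filter (edgeR adjusted p = 0.0915) and with limma voom (adjusted p = 0.0574). Acaa2 lost its call without the filter (edgeR adjusted p = 0.0787) and with limma voom (adjusted p = 0.0548). For both genes the groups were apart, and for Acaa2 the libraries within each group were almost level.

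Eci1 encodes an enoyl-CoA isomerase that moves the double bond of unsaturated fatty acids so that beta-oxidation can go on (ENSMUSG00000024132, chromosome 17, 24426641 to 24439348). It was at 46.1, 44.2 and 41.5 CPM in TMRM-high libraries, against 66.5, 60.8 and 82.4 CPM in TMRM-low libraries, the largest change among the 5 called genes (log2 fold change -0.67, SE 0.151, edgeR adjusted p = 0.0302). Dlst, the only gene called higher, encodes the E2 succinyltransferase core of the oxoglutarate dehydrogenase complex (ENSMUSG00000004789, chromosome 12, 85110833 to 85134845). It was at 105, 112 and 112 CPM in TMRM-high libraries, against 81.8, 70.6 and 87.2 CPM in TMRM-low libraries (log2 fold change 0.46, SE 0.11, edgeR adjusted p = 0.0375). The groups were apart for both genes, and TMRM-low replicate 3 was the highest library for both within its group.

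Suclg1, Acaa2, Eci1 and Dlst each lost their call when any 1 TMRM-high library was left out. In those fits the edgeR adjusted p ran from 0.199 to 0.212 for Suclg1, from 0.169 to 0.181 for Acaa2, from 0.129 to 0.164 for Eci1 and from 0.132 to 0.185 for Dlst. All 4 kept their calls whichever TMRM-low library was left out. With the TMRM-high libraries summed none of the 36 genes was called, and these 4 had an edgeR adjusted p of 1. Their log2 fold changes were then -0.31, -0.34, -0.63 and 0.48, close to the values above.

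**Figure D2:**
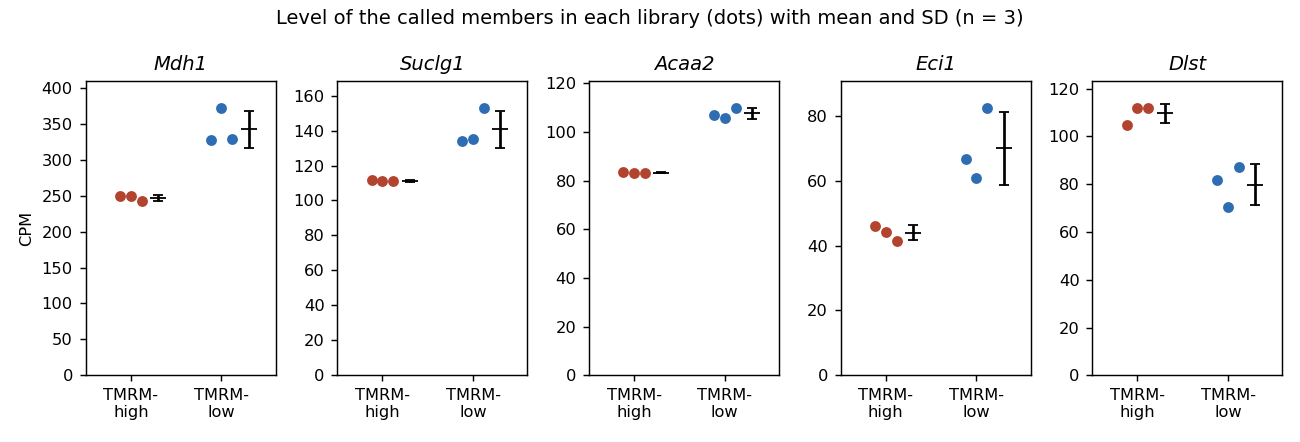
CPM of the 5 called genes in each library (dots), TMRM-high left of TMRM-low, with mean and SD of n = 3 libraries beside them. Mdh1, Suclg1, Acaa2 and Eci1 are lower and Dlst is higher in every TMRM-high library than in any TMRM-low library, and the TMRM-low dots are more widely spread.

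Pyruvate entry showed no called gene, with 1 of 5 at an unadjusted p under 0.05 and 0 called by DESeq2 or limma voom. Dlat, the E2 acetyltransferase of pyruvate dehydrogenase, was at 46.9, 52.2 and 49 CPM in TMRM-high libraries, against 41.5, 31.1 and 40.1 CPM in TMRM-low libraries. These groups did not overlap, but the log2 fold change of 0.39 (SE 0.162) did not pass (edgeR adjusted p = 0.176). Dld encodes the E3 dihydrolipoamide dehydrogenase that the pyruvate and oxoglutarate complexes share. Its TMRM-high levels were 81.4, 80.4 and 80 CPM, and its TMRM-low levels 27.8, 78.9 and 73.5 CPM. TMRM-low replicate 1 alone was low for Dld, and without it the log2 fold change was 0.09, against 0.42 with all libraries and 0.67 and 0.60 without TMRM-low replicates 2 and 3.

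The E1 subunit genes also varied among the TMRM-low libraries. Pdha1, the alpha subunit, was at 121, 140 and 122 CPM in TMRM-high libraries, against 81, 166 and 90 CPM in TMRM-low libraries. TMRM-low replicate 2 stood above all others for Pdha1, and without it Pdha1 was called higher (log2 fold change 0.58, edgeR adjusted p = 0.0195), while with all libraries it was not (0.19, edgeR adjusted p = 0.711). Leaving out TMRM-low replicate 1 or 3 instead brought the log2 fold change of Pdha1 to 0.00 or 0.05. Pdha1 shares 14% of its 31-base words with Map3k15, which held at most 45.3 estimated counts in a library. Pdhb, the beta subunit, averaged 167 ± 3.73 CPM in TMRM-high, against 153 ± 31 CPM in TMRM-low libraries (SD, n = 3 each), and its log2 fold change of 0.13 turned to -0.02 without TMRM-low replicate 2. Pcx, which encodes pyruvate carboxylase, was the least abundant of the 36 genes. It had 3.18, 2.51 and 2.15 CPM in TMRM-high libraries, against 6.42, 1.19 and 0.708 CPM in TMRM-low libraries, so its 95% interval of the fold, 0.245 to 3.63, leaves changes of several-fold either way undetected.

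In the steps from citrate to oxoglutarate no gene was called by edgeR, 1 of 5 had an unadjusted p under 0.05, and DESeq2 and limma voom each called 1 lower. That gene was Idh3g, a regulatory subunit of the NAD-dependent isocitrate dehydrogenase. It was at 218, 209 and 218 CPM in TMRM-high libraries, against 285, 230 and 296 CPM in TMRM-low libraries. The groups were apart, with a log2 fold change of -0.33 (SE 0.101, edgeR adjusted p = 0.0796), and it was called without TMRM-low replicate 2 (-0.43, edgeR adjusted p = 0.0075). Idh3a, the catalytic subunit, was at 128, 128 and 122 CPM in TMRM-high libraries, against 164, 94.2 and 89.3 CPM in TMRM-low libraries. TMRM-low replicate 1 was the highest library for Idh3a, and without it the log2 fold change was 0.46 (edgeR adjusted p = 0.016), against 0.12 with all libraries. Without TMRM-low replicate 3 it was -0.03, and without TMRM-low replicate 2 it was just under 0, so the direction of Idh3a rests on single libraries.

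The other genes of these steps had overlapping groups. Cs, the citrate synthase that opens the cycle, averaged 154 ± 5.96 CPM in TMRM-high, against 144 ± 13.3 CPM in TMRM-low libraries (SD, n = 3 each), with a 95% interval of the fold of 0.918 to 1.23. Idh2, the NADP-dependent isocitrate dehydrogenase of mitochondria, averaged 310 ± 14.3 and 340 ± 21.6 CPM in the TMRM-high and TMRM-low groups (fold interval 0.814 to 1.02). Idh3b, another subunit of the NAD-dependent enzyme, averaged 98.6 ± 0.326 CPM in TMRM-high, against 113 ± 19.9 CPM in TMRM-low libraries (edgeR adjusted p = 0.427).

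Between oxoglutarate and succinate the genes went both ways, with Dlst called higher and Suclg1 called lower. Ogdh, the E1 subunit that works beside Dlst, was at 195, 173 and 183 CPM in TMRM-high libraries, against 178, 141 and 139 CPM in TMRM-low libraries. Its groups overlapped through TMRM-low replicate 1, and without that library Ogdh was called higher (log2 fold change 0.40, edgeR adjusted p = 0.0231), against 0.27 (edgeR adjusted p = 0.192) with all libraries. The beta subunits of succinyl-CoA synthetase, which choose the nucleotide made, did not pass. Sucla2, of the ATP-forming enzyme, had a log2 fold change of 0.17 (SE 0.117), and Suclg2, of the GTP-forming enzyme, one of -0.10 (SE 0.0993). Of the words of 31 bases in Suclg2 transcripts, 20.1% also occur in the gene Gm15163, which held 2.1 to 13.8 estimated counts per library.

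From fumarate to oxaloacetate all 3 genes had negative log2 fold changes, that of Mdh2 only -0.02, and Mdh1 was the called one. Fh1, which encodes fumarate hydratase, was at 70.9, 72.7 and 73.1 CPM in TMRM-high libraries, against 90, 81.6 and 95.2 CPM in TMRM-low libraries. Its groups did not overlap, but the log2 fold change of -0.30 (SE 0.105) did not pass with edgeR (adjusted p = 0.117); DESeq2 called it (adjusted p = 0.0424), as did edgeR without TMRM-low replicate 2 (adjusted p = 0.0408). Mdh2, the mitochondrial malate dehydrogenase of the cycle itself, averaged 350 ± 5.47 CPM in TMRM-high, against 354 ± 38.5 CPM in TMRM-low libraries (SD, n = 3 each). The fold interval of Mdh2 was 0.864 to 1.13, and its log2 fold change turned to 0.08 without TMRM-low replicate 1.

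The carnitine shuttle held the largest change among all 36 genes, and it did not pass. Cpt2, the inner-membrane carnitine palmitoyltransferase that releases acyl-CoA in the matrix, was at 16.1, 18.7 and 20.3 CPM in TMRM-high libraries, against 48.7, 24.2 and 36.8 CPM in TMRM-low libraries. Every TMRM-high library was below every TMRM-low library, but the TMRM-low libraries differed by 2.01-fold among themselves. The log2 fold change was -1.0 (SE 0.276, edgeR adjusted p = 0.0603). Cpt2 was called by DESeq2 (adjusted p = 0.0068), by limma voom (adjusted p = 0.0174), by edgeR without a low-count filter (adjusted p = 0.0449) and without TMRM-low replicate 2 (-1.22, adjusted p = 0.0137).

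Cpt1a, the outer-membrane enzyme that commits fatty acids to oxidation, was at 77.4, 72.3 and 79.4 CPM in TMRM-high libraries, against 62.9, 76 and 47.6 CPM in TMRM-low libraries. The groups overlapped at TMRM-low replicate 2, and the log2 fold change of 0.30 (SE 0.175) did not pass (edgeR adjusted p = 0.341). It was 0.47 without TMRM-low replicate 2 and 0.14 without TMRM-low replicate 3. Slc25a20, the carnitine-acylcarnitine carrier, averaged 34.6 ± 1.04 CPM in TMRM-high, against 31.4 ± 6.83 CPM in TMRM-low libraries (SD, n = 3 each).

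The 4 acyl-CoA dehydrogenases, which differ in the chain length they accept, all had negative log2 fold changes, from -0.50 to -0.23, and none was called by edgeR. At an unadjusted p under 0.05 there were 2, and DESeq2 called 1 and limma voom 0. Acads, for short chains, was at 50.2, 41.9 and 45.2 CPM in TMRM-high libraries, against 62.1, 62.8 and 57.1 CPM in TMRM-low libraries. The groups were apart (log2 fold change -0.41, SE 0.133, edgeR adjusted p = 0.0963, DESeq2 adjusted p = 0.0211). Acadm, for medium chains, was at 68, 71.2 and 73 CPM in TMRM-high libraries, against 106, 67.8 and 127 CPM in TMRM-low libraries. TMRM-low replicate 2 lay just below the lowest TMRM-high value, and without it Acadm was called lower (-0.72, edgeR adjusted p = 0.0118). With all libraries its log2 fold change was -0.50 (edgeR adjusted p = 0.187), and without TMRM-low replicate 3 it was -0.29.

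Acadvl, for very long chains, showed the same library apart, at 49.9, 48.6 and 51.7 CPM in TMRM-high and 85.4, 45.1 and 65.9 CPM in TMRM-low libraries. Without TMRM-low replicate 2 its log2 fold change was -0.59 (edgeR adjusted p = 0.0394), against -0.39 with all libraries and -0.14 without TMRM-low replicate 1. Transcripts of Acadvl share 33.2% of their 31-base words with Dvl2, whose gene overlaps it, so its counts are uncertain. Acadl, for long chains, averaged 108 ± 4.94 CPM in TMRM-high, against 127 ± 13.3 CPM in TMRM-low libraries (log2 fold change -0.23, edgeR adjusted p = 0.205).

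Of the enzymes from hydration to thiolysis Acaa2 was called lower, and the other 4 did not pass. Echs1, the short-chain enoyl-CoA hydratase, was at 90.3, 84.8 and 87.9 CPM in TMRM-high libraries, against 107, 110 and 104 CPM in TMRM-low libraries. Its groups were apart (log2 fold change -0.29, SE 0.0879, edgeR adjusted p = 0.0775). DESeq2 called it (adjusted p = 0.00961), and so did edgeR without TMRM-low replicate 3 (adjusted p = 0.0482). Hadh, which encodes a hydroxyacyl-CoA dehydrogenase for medium and short chains, averaged 87.8 ± 2.09 CPM in TMRM-high, against 94.1 ± 7.88 CPM in TMRM-low libraries (SD, n = 3 each).

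Hadha and Hadhb encode the alpha and beta subunits of the mitochondrial trifunctional protein and lie head to head on chromosome 5. Hadha was at 90.1, 90.7 and 95.3 CPM in TMRM-high libraries, against 92, 67.3 and 65 CPM in TMRM-low libraries. TMRM-low replicate 1 reached the TMRM-high values, and without it Hadha was called higher (log2 fold change 0.48, edgeR adjusted p = 0.0196), against 0.30 (edgeR adjusted p = 0.266) with all libraries and 0.23 and 0.21 without TMRM-low replicates 2 and 3. Hadhb was at 108, 98.7 and 109 CPM in TMRM-high libraries, against 118, 94.1 and 122 CPM in TMRM-low libraries (log2 fold change -0.08, SE 0.12). Hadhb shares 19.5% of its 31-base words with Gm13910, which held at most 1.7 estimated counts in a library.

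Among the auxiliary enzymes of unsaturated acyl-CoA, Eci1 was called lower. Eci2, a related isomerase, was at 63.6, 60.2 and 64.2 CPM in TMRM-high libraries, against 72.8, 80.3 and 73.4 CPM in TMRM-low libraries. Its groups were apart, and the log2 fold change of -0.27 (SE 0.109) did not pass (edgeR adjusted p = 0.167). Decr1, the dienoyl-CoA reductase, was at 43.8, 45.1 and 46 CPM in TMRM-high libraries, against 58.5, 61.8 and 29.2 CPM in TMRM-low libraries. TMRM-low replicate 3 was the lowest library for Decr1, and without it Decr1 was called lower (-0.42, edgeR adjusted p = 0.0453), against -0.15 with all libraries. Without TMRM-low replicate 1 it was -0.01 and without TMRM-low replicate 2 it was 0.04, so the direction of Decr1 depended on the library left out.

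Electrons from the acyl-CoA dehydrogenases pass to the electron transfer flavoprotein, and no gene of this step was called: 0 of 3 had an unadjusted p under 0.05, and DESeq2 and limma voom called 0. Etfb, the beta subunit, was at 400, 397 and 399 CPM in TMRM-high libraries, against 384, 384 and 393 CPM in TMRM-low libraries. It had the narrowest interval of the 36 genes, a fold of 0.949 to 1.12. Etfa, the alpha subunit, averaged 115 ± 3.17 CPM in TMRM-high, against 112 ± 7.99 CPM in TMRM-low libraries (SD, n = 3 each). Etfdh encodes the oxidoreductase that hands these electrons to ubiquinone and was at 50.9, 49.7 and 53.9 CPM in TMRM-high libraries, against 28.3, 22.2 and 55.2 CPM in TMRM-low libraries. TMRM-low replicate 3 alone matched the TMRM-high level, and without it Etfdh was called higher (log2 fold change 1.03, edgeR adjusted p = 0.00986), against 0.55 with all libraries, 0.41 without TMRM-low replicate 1 and 0.30 without TMRM-low replicate 2. The gene 4930579G24Rik overlaps Etfdh on the other strand and shares 3.31% of the 31-base words of Etfdh. It held 852.5, 784.1 and 491.8 estimated counts in TMRM-high and 294.2, 288.3 and 553.3 in TMRM-low libraries. These counts are not scaled to library size. For this gene too, replicate 3 was the highest TMRM-low library.

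**Figure D3:**
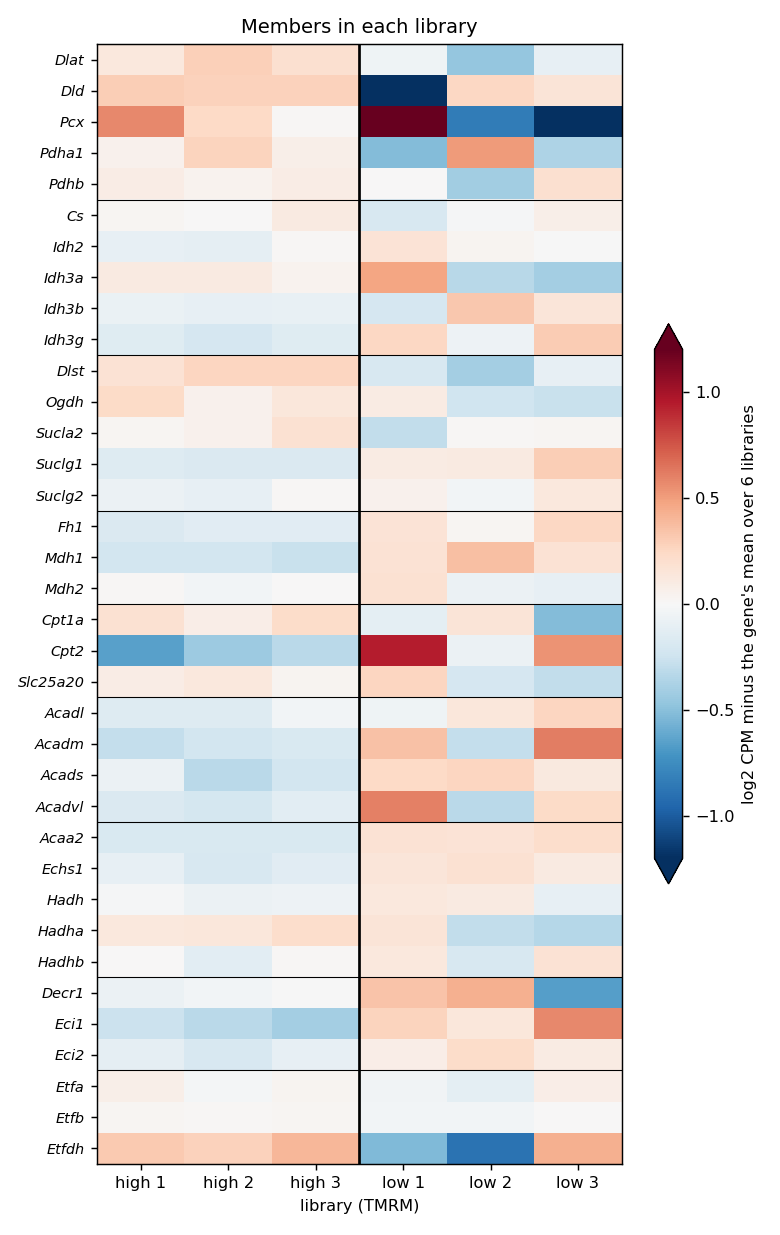
Log2 CPM of each of the 36 genes in each library minus the gene's mean over the 6 libraries, TMRM-high on the left; black lines part the roles in the order of the text. The 3 TMRM-high columns look alike, while the TMRM-low columns differ from one another, as for Dld in replicate 1 and Etfdh in replicates 1 and 2.

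The uneven TMRM-low libraries were a feature of nearly the whole set. The coefficient of variation (CV, SD over mean) was higher among TMRM-low than among TMRM-high libraries for 34 of 36 genes; Acads and Echs1 were the exceptions. Its median was 3.29% among TMRM-high libraries, against 13.3% among TMRM-low libraries. No gene had a CV above 20% in TMRM-high libraries, and 13 did in TMRM-low libraries, 5 of pyruvate entry and the TCA cycle and 8 of fatty acid oxidation. Other tested genes in the same range of levels, Pcx left out of the range, behaved alike: over 5963 genes the median CV was 4.83% and 17.3% in TMRM-high and TMRM-low libraries, and 92.5% had the higher CV in TMRM-low. No single TMRM-low library was low throughout, since replicates 1, 2 and 3 were the lowest of their group for 9, 15 and 12 of the 36 genes.

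**Figure D4:**
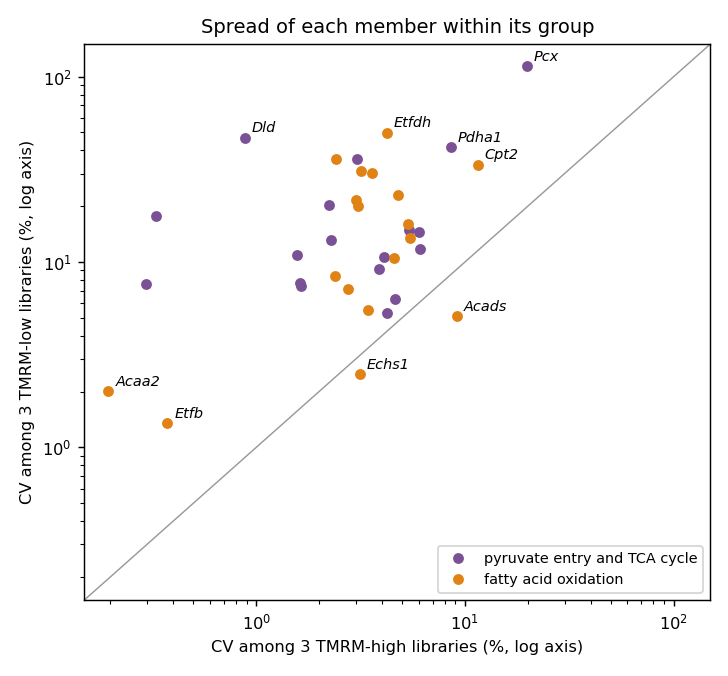
CV of each gene among the 3 TMRM-high libraries (horizontal, log axis) and the 3 TMRM-low libraries (vertical, log axis); the line marks equal spread. All but Acads and Echs1 lie above the line, and Dld, Etfdh, Pdha1 and Pcx are among the highest.

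Ratios of paired genes within a library do not depend on library scaling, and 10 were compared by exact two-sided permutation tests. With 3 against 3 libraries the smallest p possible is 0.1, so no ratio could pass. For 5 of the 10 the groups did not overlap. Cpt1a to Cpt2 was 4.81, 3.87 and 3.92 in TMRM-high libraries, against 1.29, 3.14 and 1.29 in TMRM-low libraries, a log2 difference of 1.27 (exact p = 0.1, adjusted p = 0.2 over the 10 ratios). Mdh1 to Mdh2 was 0.703, 0.724 and 0.686 in TMRM-high libraries, against 0.822, 1.11 and 1 in TMRM-low libraries (log2 difference -0.46). Mdh1, the cytosolic enzyme, was thus lower relative to the mitochondrial enzyme in every TMRM-high library.

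Within the trifunctional protein, Hadha to Hadhb was 0.832, 0.918 and 0.873 in TMRM-high libraries, against 0.78, 0.716 and 0.534 in TMRM-low libraries (log2 difference 0.39). Suclg2 to Sucla2, the GTP-forming over the ATP-forming subunit, was 0.845, 0.818 and 0.806 in TMRM-high libraries, against 1.15, 0.879 and 0.974 in TMRM-low libraries (-0.27). Eci1 to Eci2 was 0.725, 0.734 and 0.645 in TMRM-high libraries, against 0.913, 0.757 and 1.12 in TMRM-low libraries (-0.39). Each of these also had an exact p of 0.1 and an adjusted p of 0.2. Single libraries moved them: Hadha to Hadhb was 0.23 without TMRM-low replicate 3, Suclg2 to Sucla2 was -0.17 without TMRM-low replicate 1, and Eci1 to Eci2 was -0.25 without TMRM-low replicate 3. Etfa to Etfb was the steadiest ratio, at 0.297, 0.283 and 0.289 in TMRM-high and 0.286, 0.273 and 0.306 in TMRM-low libraries. Pcx to Pdha1, Acadl to Acadvl, Idh3a to Idh3g and Idh3b to Idh3g had overlapping groups, with exact p-values of 1, 0.8, 0.2 and 0.7.

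**Figure D5:**
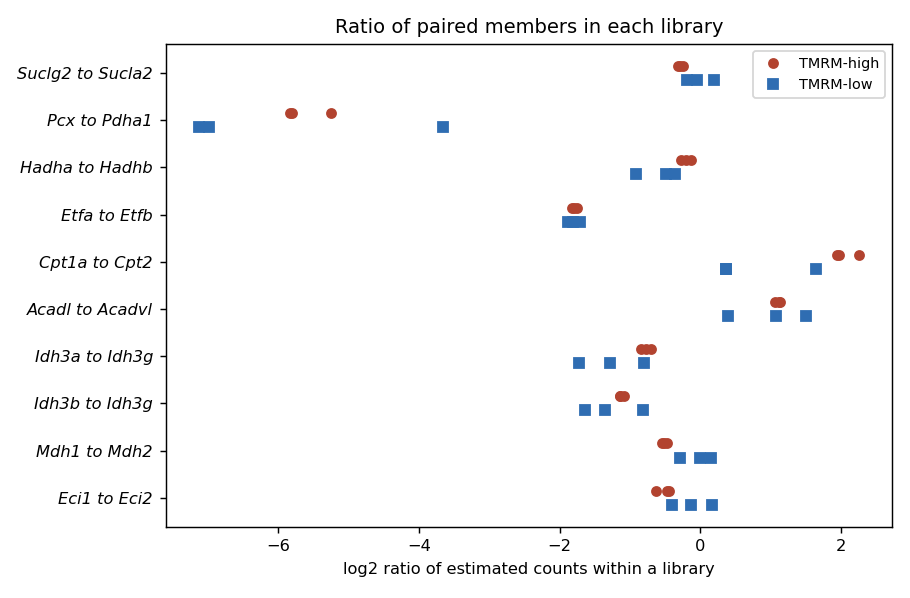
Log2 ratio of estimated counts of 2 genes within each library, for 10 pairs; circles are the 3 TMRM-high and squares the 3 TMRM-low libraries. Circles and squares are apart for Cpt1a to Cpt2, Hadha to Hadhb, Mdh1 to Mdh2, Suclg2 to Sucla2 and Eci1 to Eci2, and the circles are the more tightly grouped in every pair.

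Per kilobase of the longest coding transcript, Etfb was the most abundant of the 36 genes, with a level of 446 CPM per kilobase in TMRM-high, against 433 in TMRM-low libraries. Mdh2 followed with 240 and 243 CPM per kilobase, Idh2 with 178 and 195 and Idh3g with 161 and 203, each for TMRM-high and TMRM-low libraries. At the low end were Pcx with 0.63 and 0.668, Dlat with 12.2 and 9.31 and Cpt2 with 7.74 and 15.4 CPM per kilobase in TMRM-high and TMRM-low libraries. Since transcript lengths in these cells are not known, this order is approximate.

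Upstream sequence is shown for the called genes Dlst and Eci1, for Acadm as a gene whose promoter holds motifs of known regulators of mitochondrial genes, and for the stretch that Hadha and Hadhb share. Sequences are from RefSeq on GRCm38.p6, 5′ to 3′, cut before the first annotated transcript base; capitals mark the motifs described after them.
Dlst, chr12:85110583-85110832, plus strand: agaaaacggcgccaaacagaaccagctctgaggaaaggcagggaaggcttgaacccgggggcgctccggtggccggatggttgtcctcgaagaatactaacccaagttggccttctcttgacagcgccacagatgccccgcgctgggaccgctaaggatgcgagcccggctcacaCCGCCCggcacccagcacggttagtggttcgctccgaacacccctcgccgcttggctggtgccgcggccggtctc
Eci1, chr17:24426433-24426640, plus strand: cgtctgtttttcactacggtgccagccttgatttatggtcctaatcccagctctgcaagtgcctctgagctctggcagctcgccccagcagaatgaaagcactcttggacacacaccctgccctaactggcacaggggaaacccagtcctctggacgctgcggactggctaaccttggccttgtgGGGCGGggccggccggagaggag
Acadm, chr3:153944644-153944893, minus strand: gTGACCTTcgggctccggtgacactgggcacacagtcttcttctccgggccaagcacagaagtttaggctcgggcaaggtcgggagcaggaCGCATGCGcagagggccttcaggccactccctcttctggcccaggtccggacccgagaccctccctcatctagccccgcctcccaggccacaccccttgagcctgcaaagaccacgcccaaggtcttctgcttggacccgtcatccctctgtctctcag
Hadha and Hadhb, chr5:30155163-30155247, plus strand (Hadha leads off to the left, Hadhb to the right): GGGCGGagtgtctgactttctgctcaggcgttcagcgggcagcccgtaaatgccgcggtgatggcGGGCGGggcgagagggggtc

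Motifs were searched on both strands in RefSeq windows from 250 bases before to 50 bases after a start, which 33 of the 36 genes had. The estrogen-related receptor core, AAGGTCA, was in windows of 2 genes (Acadm and Ogdh), or 6.06%, against 5.38% of all genes with a window and 3.94% of those tested. The NRF1 core, GCATGCG, was in 5 (Acadm, Etfa, Etfdh, Ogdh and Pdhb), or 15.2%, against 4.01% of all and 7.07% of those tested; in Acadm 2 matches on opposite strands overlap. An E-box, CACGTG, was in 2 (Ogdh and Pcx), or 6.06%, against 8.09% of all and 11.6% of those tested. A GC box, GGGCGG, a motif added after the values were seen, was in 25, or 75.8%, against 38.2% of all and 66.6% of those tested. No called gene with a window held one of the first 3 motifs. Dlst, Eci1 and Mdh1 held a GC box, a motif also common among the genes that were not called. With only 5 called genes these counts cannot set the called genes apart. The 85 bases between Hadha and Hadhb held 2 GC boxes.

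Other genes of these pathways were taken from 8 lists with 110 symbols. Of 98 tested, 3 were higher, 3 were lower and 92 did not pass, or 6.12% called against the 11.0% of all genes. Mpc1, a subunit of the mitochondrial pyruvate carrier, was called higher, at 178, 185 and 186 CPM in TMRM-high libraries, against 116, 144 and 132 CPM in TMRM-low libraries (log2 fold change 0.49, SE 0.0959, edgeR adjusted p = 0.0184). Its partner Mpc2 was at 63, 62.3 and 58.5 CPM in TMRM-high libraries, against 95.3, 86.3 and 68.5 CPM in TMRM-low libraries, and did not pass (-0.44, edgeR adjusted p = 0.0929). Of the 9 tested genes of pyruvate transport and pyruvate dehydrogenase regulation Mpc1 was the only one called. Pdk1, a kinase that inhibits pyruvate dehydrogenase, did not pass (-0.33, edgeR adjusted p = 0.136).

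Hsd17b10, a mitochondrial hydroxyacyl-CoA dehydrogenase of short and branched chains, had the smallest p of the 98. It was at 81.7, 79.5 and 86.3 CPM in TMRM-high libraries, against 139, 142 and 143 CPM in TMRM-low libraries (log2 fold change -0.78, SE 0.0842, edgeR adjusted p = 0.00121), and kept its call whichever library was left out. Cpt1b, the muscle-type counterpart of Cpt1a, had 34, 55 and 20 estimated counts in TMRM-high libraries and 0 in each TMRM-low library. Against a floor of 3 counts over the TMRM-low group it was at least 33.6-fold higher (edgeR adjusted p = 0.0105). Cpt1b passed the low-count filter only through the TMRM-high libraries, so its call is not independent of that filter. Those were the 2 called of 22 tested genes of other mitochondrial acyl-CoA and branched-chain oxidation.

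In the peroxisome, which shortens very long fatty acids, 1 of 11 tested genes was higher and 1 lower. Scp2, a sterol carrier with thiolase activity, was at 211, 211 and 216 CPM in TMRM-high libraries, against 152, 150 and 180 CPM in TMRM-low libraries (log2 fold change 0.40, SE 0.0901, edgeR adjusted p = 0.0294). Pex11a, a gene of peroxisome division, was at 5.31, 3.64 and 4.79 CPM in TMRM-high libraries, against 9.84, 16.4 and 19.1 CPM in TMRM-low libraries (-1.72, SE 0.367, edgeR adjusted p = 0.0245). Fabp5, a fatty acid binding protein, was the 1 called of 10 tested genes of fatty acid uptake and activation, at 74.8, 71.1 and 77.3 CPM in TMRM-high libraries, against 105, 103 and 93.7 CPM in TMRM-low libraries (-0.43, SE 0.1, edgeR adjusted p = 0.0324). Mpc1, Cpt1b, Scp2, Pex11a and Fabp5 each lost their call when any 1 TMRM-high library was left out, and all 6 called genes did so with the TMRM-high libraries summed.

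None of 22 tested genes of the remaining TCA steps and of malate, glutamate and citrate exchange was called by edgeR; 3 had an unadjusted p under 0.05, DESeq2 called 1 and limma voom 0. Sdha, the flavoprotein subunit of succinate dehydrogenase, was at 257, 273 and 270 CPM in TMRM-high libraries, against 234, 261 and 276 CPM in TMRM-low libraries. Sdhd, a membrane anchor of that enzyme, was at 218, 223 and 220 CPM in TMRM-high libraries, against 169, 173 and 246 CPM in TMRM-low libraries. Both had overlapping groups, as did Sdhc of the same enzyme. Its subunit gene Sdhb had groups apart, at 189, 177 and 182 CPM in TMRM-high libraries, against 205, 209 and 264 CPM in TMRM-low libraries. Sdhb did not pass (log2 fold change -0.30, edgeR adjusted p = 0.12).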

How the data were processed

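cDNA of 1500 sorted cells per library was amplified by 13 cycles of PCR and sequenced as paired reads of 150 bases, per the labels' protocols, which name no marking of strand or molecule. The authors deposited estimated counts per gene, not scaled to depth; GRCm38, Salmon (as 0.03.1) and Trim Galore 0.5.0 are named per the submitters' processing notes; neither annotation nor settings are given in the sources used here. Of 28786 IDs 27728 matched a symbol. Positions and lengths are from GENCODE M21.

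Counts were rounded to whole numbers. Genes passing edgeR's filterByExpr (13662) were scaled by TMM and fitted with edgeR 4.0.16 (glmQLFit with robust estimation, glmQLFTest, group as the only term) in R 4.3.3. CPM use TMM-scaled library sizes. The SE is the log2 fold change over the square root of F, and 95% intervals use the t distribution of the fit. Bounds against 3 counts cover counting error only. In 3 simulations on the 13662 genes of this comparison, the share of changed genes recovered was 24% at 1.5-fold, 48.3% at 2-fold and 78.3% at 4-fold, and 13 of 39474 unchanged genes were called.

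Genes and lists were chosen with earlier results of these data known. All 36 are named, with values for every library of those called and of 1 or more per role that were not. In other lists, called genes and up to 2 others of the highest mean CPM are named, not all of them described. Sdhb and Sdhc are named in addition, as subunits of the enzyme of Sdha and Sdhd. The alternatives tried were leaving out each library, a block on the replicate number, DESeq2 1.42.0, limma 3.58.1 voom (quality-weighted), scaling by total count, RLE or upper quartile, dropping the filter, a filter on a mean count of at least 50, a threshold of 0.10, the TMRM-high libraries summed and, for ratios, 10 added to both counts. Words of 31 bases shared between genes were counted in GENCODE M21 transcripts on both strands.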

Additional observations from a re-analysis of the deposited data

How the results depend on the processing

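Of the 36 genes, 1 higher and 4 lower calls were made as reported. DESeq2 called 9 lower, an adjusted p of 0.10 gave 8 lower, and the replicate block left 0 higher and 1 lower (Mdh1). With the TMRM-high libraries summed 0 were higher and 0 lower. With 1 library left out, 0 to 4 were higher, the most without TMRM-low replicate 1, and 0 to 9 lower, the most without TMRM-low replicate 2. Without TMRM-high replicate 3 none was called. Calls over all genes moved the same way in these fits. They were 1225 higher without TMRM-low replicate 1, 1063 lower without TMRM-low replicate 2, and 250 higher and 181 lower without TMRM-high replicate 3. Over all genes, 798 higher and 700 lower became 1324 and 1337 with DESeq2, 80 and 34 with the TMRM-high libraries summed, and 250 to 1398 higher and 181 to 1174 lower with 1 library left out; an adjusted p of 0.10 gave 1190 higher and 1138 lower, and the replicate block 582 higher and 449 lower. RLE and upper-quartile scaling and the filter on a mean count of at least 50 gave the same counts for the 36 genes. Total-count scaling gave 1 higher and 3 lower, against 850 and 668 of all genes tested. Dropping the filter gave 1 higher and 3 lower, against 798 and 656. Limma voom gave 1 higher and 4 lower, against 812 and 881. Suclg1 was lost in all 3 of these fits, and Acaa2 without the filter and with limma voom. The median log2 fold change of the 36 genes stayed negative in every fit, from -0.11 to -0.02 with 1 library left out. Over all genes tested it was also negative in those left-out fits, from -0.0369 to -0.0148. Without TMRM-low replicate 1 the median was -0.0196 over the 36 genes and -0.0148 over all genes, so the 36 genes then hardly differed from the rest. Log2 differences of ratios whose direction depended on 1 library ran from -0.303 to 1.44 for Pcx to Pdha1, from -0.031 to 0.0526 for Etfa to Etfb, from -0.188 to 0.362 for Acadl to Acadvl and from -0.0428 to 0.37 for Idh3b to Idh3g. The cause of these changes was not tested.

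Same-numbered libraries of the groups had correlations of their deviations of -0.0139, 0.0165 and 0.021. Such low values cannot show whether these libraries came from the same mice or sort, so the replicate block rests on the number alone. The biological coefficient of variation was 7.22% within TMRM-high, against 41.6% within TMRM-low, and the test uses 1 estimate for both. In simulations with equal spread in both groups, changes of 2-fold and less were often missed, and detection at these unequal spreads was not tested.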

Other observations

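Fatty acid synthesis, the opposite route, showed no called gene among 8 tested with edgeR, with 3 at an unadjusted p under 0.05; DESeq2 called 1 higher and 2 lower, and limma voom 1 higher and 1 lower. Scd2, a stearoyl-CoA desaturase, was at 100, 101 and 107 CPM in TMRM-high libraries, against 150, 158 and 115 CPM in TMRM-low libraries (log2 fold change -0.46, edgeR adjusted p = 0.0653). Fasn, the fatty acid synthase, was at 63.7, 60.3 and 67.8 CPM in TMRM-high libraries, against 69.8, 70.5 and 111 CPM in TMRM-low libraries (-0.39, edgeR adjusted p = 0.262). For both, every TMRM-high library was below every TMRM-low library.

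Of 13 tested regulators of fat oxidation none was called by edgeR, with 2 at an unadjusted p under 0.05; DESeq2 and limma voom each called 1 lower. Sirt3, the mitochondrial deacetylase, was at 80.2, 81.6 and 83.3 CPM in TMRM-high libraries, against 136, 99.5 and 109 CPM in TMRM-low libraries (log2 fold change -0.49, edgeR adjusted p = 0.052). The groups were apart, and Sirt3 passed with the filter dropped and with DESeq2, limma voom, total-count and upper-quartile scaling. Ncor1, a corepressor, was at 294, 304 and 286 CPM in TMRM-high libraries, against 328, 234 and 262 CPM in TMRM-low libraries. Of 3 tested ketone body genes none was called by edgeR or limma voom, 1 had an unadjusted p under 0.05 and DESeq2 called 1. Oxct1, which lets cells use ketone bodies, was at 130, 137 and 134 CPM in TMRM-high libraries, against 142, 109 and 101 CPM in TMRM-low libraries.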
